A study of Mus musculus with 6 samples.

Results

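Apold1, Ier2, Ier3, Ier5, Sik1, Btg2, Cyr61 and Ctgf are 8 early response genes of the 24935 genes in the deposited table of the hippocampus after neonatal hyperoxia. They were picked by name for a rise in the hyperoxia columns, so their levels and differences are given here as a description, with no test. The measured values matched that label for 5 of the 8: Apold1, Ier3, Ctgf, Cyr61 and Sik1 were higher in all 3 hyperoxia libraries than in any air library, a pattern that 22.3% of the 17778 genes tested also had. The other 3, Btg2, Ier5 and Ier2, had groups that overlapped. C57BL/6 mouse pups were kept with their dams in room air, or in a normobaric chamber at 85% oxygen from postnatal day 2 to postnatal day 14 (P2 to P14). RNA of the left hippocampus, taken at P14, was sequenced as 1 library per mouse, with 3 mice in air and 3 in hyperoxia. No genetic change or other agent was given for either group, and the sex, litter and preparation batch of each library were not given. The libraries are named by group and by the number of the deposited column, which does not identify an animal. Every direction follows the group that the columns name. That naming was not checked by any other measure here, since no gene was targeted, and exchanged names would reverse the sign of every difference given.

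Early response genes, also called immediate early genes, are transcribed within minutes of a stimulus by factors already present in the cell, without new protein synthesis. In hippocampal neurons, synaptic activity switches on the best known of them, such as Arc, Fos and Npas4. The 8 genes described here belong to the same broad class but are also induced outside neurons, by growth factors, shear stress, hypoxia or DNA damage. Apold1 is an early response gene of endothelial cells. Ier2, Ier3 and Ier5 carry the name immediate early response. Sik1 encodes a salt-inducible kinase, Btg2 an antiproliferative adaptor, and Cyr61 and Ctgf secreted matricellular proteins of the CCN family.

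The 6 libraries held 30384052 to 38746972 reads on genes. Of the genes tested, 5425 passed a limma adjusted p under 0.05 (Benjamini-Hochberg), 2643 higher (14.9%) and 2782 lower (15.6%) in hyperoxia. The list counts below stand beside these shares. The median log2 difference of all tested genes was −0.0072. The first principal component (52.7% of the variance) separated the groups and the second (19.5%) set hyperoxia library 2 apart from hyperoxia library 3. An 18S ribosomal RNA gene, Rn18s-rs5, was at 3648 to 7258 normalized counts in air and 20315 to 30670 in hyperoxia. Summed markers of choroid plexus were at 603 to 1513 in air, and reached 8397 in hyperoxia library 3 against 581 in hyperoxia library 2. Summed markers of hippocampal neurons were at 68430 to 72213 in air and 50758 to 67224 in hyperoxia, and none of the markers used was at 0 in all libraries. The part of these differences in the results was not tested. In bulk tissue, fewer cells of a type and less RNA per cell cannot be told apart.

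The sequences just upstream of a pair of higher genes and of 1 gene whose groups overlapped are shown, because early response genes are known for short promoters crowded with factor sites. RefSeq windows on GRCm38.p6 were given for 5 of the 8 genes, Apold1, Ier3, Ier5, Btg2 and Cyr61 (listed as Ccn1), and Ier2, Sik1 and Ctgf are named only. The Ier3 stretch is chr17:35821463-35821683 (plus strand, 221 bases), the Cyr61 stretch is chr3:145649986-145650235 (minus strand, 250 bases) and the Btg2 stretch is chr1:134079156-134079405 (minus strand, 250 bases). Each is written 5′ to 3′ on the strand of the gene. Capitals mark a match to one of the motifs searched on both strands.
Ier3: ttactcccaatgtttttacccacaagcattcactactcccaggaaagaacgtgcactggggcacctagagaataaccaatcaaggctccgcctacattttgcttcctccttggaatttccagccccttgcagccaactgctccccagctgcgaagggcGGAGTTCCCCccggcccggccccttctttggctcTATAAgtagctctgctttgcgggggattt
Cyr61: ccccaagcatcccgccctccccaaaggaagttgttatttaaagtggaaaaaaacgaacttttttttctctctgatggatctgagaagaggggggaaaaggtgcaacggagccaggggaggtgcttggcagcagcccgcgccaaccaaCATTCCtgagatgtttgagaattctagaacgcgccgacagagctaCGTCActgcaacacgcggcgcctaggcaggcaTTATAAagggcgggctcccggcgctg
Btg2: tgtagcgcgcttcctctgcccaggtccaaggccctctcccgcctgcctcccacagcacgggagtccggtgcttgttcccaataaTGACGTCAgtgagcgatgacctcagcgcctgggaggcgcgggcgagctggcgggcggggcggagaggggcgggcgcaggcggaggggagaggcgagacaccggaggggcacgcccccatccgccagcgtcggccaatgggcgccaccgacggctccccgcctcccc
In the Ier3 stretch, the capitals mark an NF-kB motif on the minus strand, 92 bases upstream of the RefSeq start, and a TATA motif (TATAA) at 58 bases. In the Cyr61 stretch they mark a TEAD motif (GGAATG) on the minus strand at 103 bases, the core site (TGACG) of the cAMP response element (CRE) on the minus strand at 58 bases, and overlapping TATA matches on both strands at 26 and 25 bases. In the Btg2 stretch they mark a full CRE (TGACGTCA) at 166 bases, a palindrome that also holds the core site on each strand. Of all 32851 RefSeq windows of 300 bases, 4.51% held the NF-kB motif, 24.9% the TATA motif, 14.7% the TEAD motif, 20.8% the CRE core site and 1.79% the full CRE. An AP-1 motif (TGANTCA, in 7.81% of all windows) and the SRF CArG box (in 1.63%) had no match in the 5 windows. The Ier5 window held a TATA match at 26 bases. The Apold1 window held 1 CRE core site and 1 TATA match, but it begins at 134981751, inside the GENCODE gene that starts at 134981718. Its matches and GC content are therefore not those of sequence upstream of that gene start. The GC content of the windows was 72.0% for Btg2, 59.0% for Ier5, 57.0% for Cyr61, 54.0% for Ier3 and 51.7% for Apold1, beside a median of 52.7% for all windows. A match is a description of letters, and no binding was measured here.

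Apold1 (apolipoprotein L domain containing 1, ENSMUSG00000090698.2, GRCm38 6:134981718-134986836, plus strand) had the largest difference of the 8. It encodes a protein of endothelial cell junctions that is induced by hypoxia and injury. Its normalized counts were 97.0, 140.4 and 137 for air libraries 1 to 3, against 528, 884 and 638 for hyperoxia libraries 1 to 3. All 3 hyperoxia libraries lay far above all 3 air libraries, and hyperoxia library 2 was the highest. The means were 125 ± 24.0 in air and 683 ± 183 in hyperoxia (here and throughout, ± after a mean is the SD, n = 3 libraries), a 5.48-fold ratio. The fitted log2 difference, hyperoxia minus air on log2(value + 1), was 2.43 ± 0.20 (SE), which ranked 18 among the rises of the 17778 genes tested. Apold1 moved from the lowest level per length of the 8 in air to rank 6 from the lowest in hyperoxia, where it overlapped the genes next to it.

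Ier3 (immediate early response 3, ENSMUSG00000003541.6, 17:35821684-35822923, plus strand) encodes a small stress-induced protein that modulates cell survival and is a known target of NF-kB and p53. Its normalized counts were 81.9, 73.3 and 64.7 for air libraries 1 to 3, against 225, 306 and 243 for hyperoxia libraries 1 to 3. The lowest hyperoxia library stood well above the highest air library, and library 2 was again the highest. The means were 73.3 ± 8.63 in air and 258 ± 42.5 in hyperoxia, a 3.52-fold ratio, and the log2 difference was 1.79 ± 0.16 (SE), rank 80 of the tested genes. The fewest reads behind any value of the 8 genes, 63, were those of Ier3 in air, so counting error weighs most on this gene.

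The other genes with the IER name did not share that difference. Ier2 (ENSMUSG00000053560.4, 8:84661331-84662852, minus strand), a nuclear protein induced by growth factors, was at 317, 296 and 281 for air libraries 1 to 3, against 282, 339 and 236 for hyperoxia libraries 1 to 3. Its highest and its lowest values were both in hyperoxia, in libraries 2 and 3. The means were 298 ± 18.1 in air and 285 ± 51.6 in hyperoxia, and the log2 difference of −0.078 ± 0.14 (SE) took both signs over the 16 alternative settings (−0.21 to 0.11). Ier5 (ENSMUSG00000056708.5, 1:155096361-155099636, minus strand), which binds the phosphatase PP2A and acts on the heat shock factor HSF1, was at 1218, 1122 and 1096 for air libraries 1 to 3, against 1133, 999.7 and 1146 for hyperoxia libraries 1 to 3. Its highest value was in air library 1, its lowest in hyperoxia library 2, and the groups overlapped in part. The means were 1146 ± 63.8 in air and 1093 ± 80.9 in hyperoxia, with a log2 difference of −0.069 ± 0.085 (SE). Ier5l, the paralog of Ier5, was at 494 ± 63.7 in air and 478 ± 46.9 in hyperoxia (log2 difference −0.042 ± 0.12 (SE), limma adjusted p = 0.810).

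**Figure D1:**
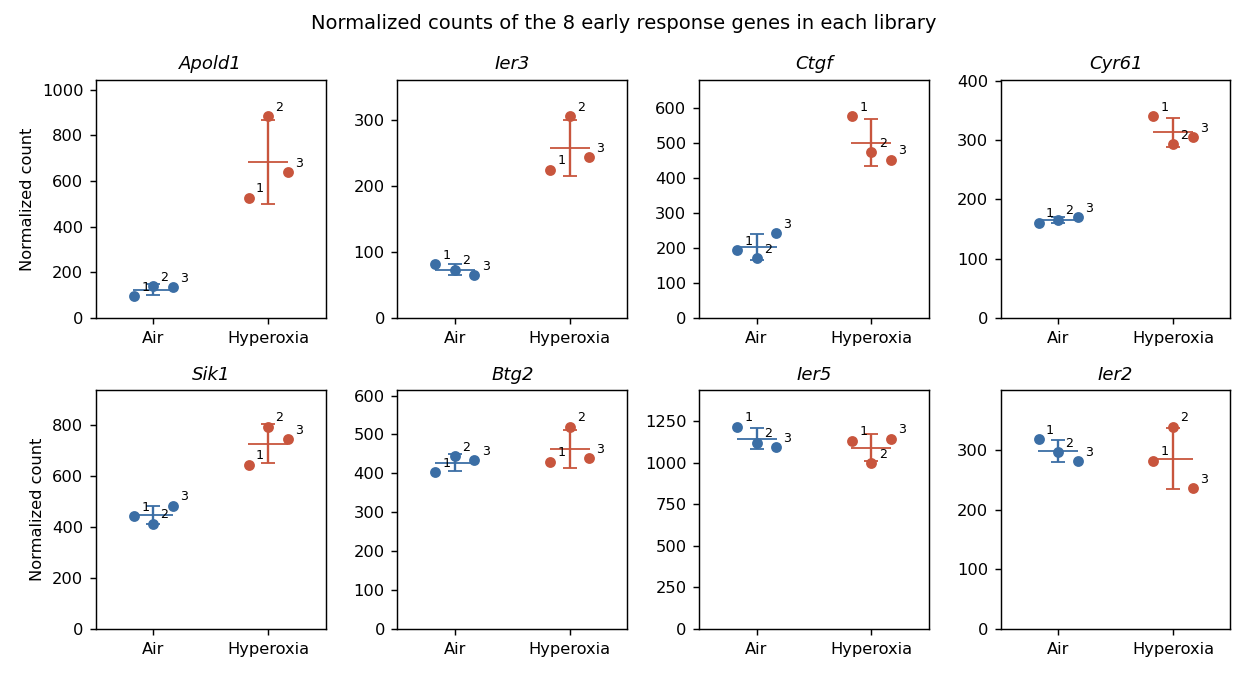
Normalized counts (y axis from 0) of the 8 genes in each library, with air and hyperoxia libraries as points numbered 1 to 3 and the mean and SD of each group as bars. Apold1, Ier3, Ctgf, Cyr61 and Sik1 have every hyperoxia point above every air point (Apold1 97.0 to 140.4 against 528 to 884), and Btg2, Ier5 and Ier2 overlap.

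Because Ier3 is a target of NF-kB and of p53, the other genes of those lists were examined. Of 12 tested NF-kB targets, 1 was higher and 1 lower, beside 14.9% higher and 15.6% lower of all tested genes. The median log2 difference of these targets was 0.023. Icam1, the leukocyte adhesion molecule of endothelium, rose from 74.4 ± 4.07 in air to 138 ± 27.0 in hyperoxia (log2 difference 0.86 ± 0.17 (SE), limma adjusted p = 0.00498). Nfkbiz, an atypical IkB protein, fell (log2 difference −0.47 ± 0.12 (SE), limma adjusted p = 0.0177), which did not pass when air library 2, air library 3 or hyperoxia library 1 was left out. Of 19 tested p53 targets, 2 were higher and 3 lower, with a median of −0.12. Perp, a desmosomal protein, and Cdkn1a, the cell cycle inhibitor p21, rose by 0.65 and 0.47 on the log2 scale (limma adjusted p = 0.00588 and 0.0107). Tigar, Sesn2 and Mdm2 fell (log2 differences −0.57, −0.44 and −0.25, limma adjusted p = 0.00377, 0.00596 and 0.0182), and Mdm2 was not called once any 1 air library or hyperoxia library 1 was left out. Without hyperoxia library 2 the p53 targets gave 4 higher and 5 lower. With all libraries, the counts of both lists were near or below the shares of all tested genes, and nothing is read from them.

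Sik1 (salt inducible kinase 1, ENSMUSG00000024042.6, 17:31844250-31855804, minus strand), a kinase of the AMPK family induced by CREB that phosphorylates CRTC coactivators and class IIa histone deacetylases, had the smallest difference of the 5 higher genes. Its normalized counts were 442, 413 and 485 for air libraries 1 to 3, against 644, 794 and 745 for hyperoxia libraries 1 to 3. The lowest hyperoxia value was above the highest air value, and library 2 was the highest. The means were 446 ± 36.0 in air and 728 ± 76.1 in hyperoxia, a 1.63-fold ratio, with a log2 difference of 0.70 ± 0.11 (SE), rank 1114. Its paralog Sik3 fell from 6881 ± 362 in air to 5040.0 ± 85.3 in hyperoxia (log2 difference −0.45 ± 0.068 (SE), limma adjusted p = 0.00182). Sik2 was at 314 ± 32.1 in air and 467 ± 149 in hyperoxia with overlapping groups (log2 difference 0.52 ± 0.22 (SE), limma adjusted p = 0.100, from 2.52e-04 to 0.284 over the alternatives), and it was called in 2 of 16 alternatives, DESeq2 and the fit without hyperoxia library 2.

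The substrates of the kinase and its regulators showed no common direction. Of 7 substrates, Hdac9 and Hdac4 were higher (log2 differences 0.59 and 0.41, limma adjusted p = 0.00820 and 0.00288). Crtc2, a CREB coactivator, and Hdac7 were lower (log2 differences −0.72 and −0.26, limma adjusted p = 4.03e-04 and 0.0373). The Hdac7 call was lost without each of air libraries 1, 2 and 3, without hyperoxia library 1 and with limma run without its trend. Of 15 CREB and CRTC genes, 4 were higher and 4 lower, with a median log2 difference of −0.11, and 7 were lower without hyperoxia library 2. Pde4d, which degrades cAMP, was at 448 ± 21.5 in air and 930.5 ± 279.9 in hyperoxia, and Ppargc1a, a coactivator of mitochondrial genes, at 1487 ± 27.9 in air and 2081 ± 204 in hyperoxia (limma adjusted p = 0.00510 and 0.00322). Nr4a1, a nuclear receptor of the same class of early genes, fell from 2625 ± 316 in air to 1532 ± 112 in hyperoxia (log2 difference −0.77 ± 0.098 (SE), limma adjusted p = 9.80e-04). Sik1 and Nr4a1, both known CREB targets, differed in opposite directions in the same 6 libraries, and the part of CREB in either was not tested.

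Btg2 (B cell translocation gene 2, ENSMUSG00000020423.6, 1:134075170-134079120, minus strand), a p53-inducible protein that brings the CCR4-NOT deadenylase to messenger RNA, did not separate the groups. Its normalized counts were 403, 445 and 434 for air libraries 1 to 3, against 429.6, 519.7 and 438 for hyperoxia libraries 1 to 3. Hyperoxia library 2 was high and the other hyperoxia libraries were within or near the air range. The means were 427 ± 21.7 in air and 462 ± 49.7 in hyperoxia, with a log2 difference of 0.11 ± 0.10 (SE). Of its 4 relatives in the BTG and TOB family, 1 passed the test. Tob1, which also binds CCR4-NOT, fell from 1573 ± 51.7 in air to 895 ± 53 in hyperoxia (log2 difference −0.81 ± 0.077 (SE), limma adjusted p = 3.30e-04). Btg1, Btg3 and Tob2 had log2 differences of −0.047, −0.33 and −0.083 (limma adjusted p = 0.669, 0.179 and 0.470). Of 11 CCR4-NOT subunits, Cnot6, a catalytic subunit, was higher (log2 difference 0.46, limma adjusted p = 0.00764) and 4 were lower, led by Cnot3, Cnot4 and Cnot2 (log2 differences −0.91, −0.60 and −0.32, limma adjusted p = 3.28e-04, 0.00199 and 0.00892). Without hyperoxia library 2, 3 subunits were higher, edgeR and DESeq2 each called 2 higher, and without air library 1 Cnot2 had a limma adjusted p of 0.0512.

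Cyr61 and Ctgf encode the founding secreted proteins of the CCN family, which bind integrins and heparan sulfate in the matrix and are the classic transcriptional targets of YAP and TAZ with TEAD factors. Ctgf (ENSMUSG00000019997.11, 10:24595442-24598683, plus strand) was at 194, 171 and 243 for air libraries 1 to 3, against 578, 476 and 454 for hyperoxia libraries 1 to 3. Hyperoxia library 1, not library 2, was the highest, and the groups did not overlap. The means were 203 ± 37.0 in air and 502 ± 66.5 in hyperoxia, a 2.48-fold ratio, with a log2 difference of 1.31 ± 0.15 (SE), rank 238. Its exons share 665 bases with the antisense gene Gm15270, which held 3.08 to 13.6 normalized counts per library. Cyr61 (ENSMUSG00000028195.4, 3:145646976-145649981, minus strand) was at 161, 166 and 170.4 for air libraries 1 to 3, against 340.3, 293 and 305 for hyperoxia libraries 1 to 3. The air values lay within a narrow band and all hyperoxia values were well above it, highest in library 1 as for Ctgf. The means were 166 ± 4.69 in air and 313 ± 24.5 in hyperoxia, a 1.89-fold ratio, with a log2 difference of 0.91 ± 0.11 (SE), rank 645.

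Of the other CCN genes, Nov was at 4596 ± 642 in air and 6031 ± 791 in hyperoxia and passed the test (log2 difference 0.39 ± 0.12 (SE), limma adjusted p = 0.0327), though 12 of 16 alternatives called it. Leaving out air library 2, air library 3 or hyperoxia library 1, or running limma without its trend, ended the call (limma adjusted p up to 0.138). Wisp1 was at 30.3 ± 4.86 in air and 37.1 ± 1.19 in hyperoxia (limma adjusted p = 0.328), and Wisp2 and Wisp3 were below the filter on low values. Of 9 receptors of CCN proteins tested, 5 were higher and the other 4 were not called, with a median log2 difference of 0.32. The integrin subunit Itga5 was at 144 ± 7.92 in air and 279 ± 42.9 in hyperoxia, Itgav at 925 ± 89.5 in air and 1733 ± 248 in hyperoxia and Itgb1 at 3280.1 ± 132 in air and 4641 ± 228 in hyperoxia (log2 differences 0.94, 0.90 and 0.50, limma adjusted p = 0.00148, 0.00100 and 0.00137).

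Among 23 tested YAP and TEAD targets other than Cyr61 and Ctgf, 11 were higher and 2 lower, and the median log2 difference was 0.30. Edn1, which encodes the vasoconstrictor endothelin-1, rose from 104 ± 15.5 in air to 343 ± 49.6 in hyperoxia (log2 difference 1.71 ± 0.15 (SE), limma adjusted p = 2.91e-04). Myof, a membrane repair protein, and Ccdc80, a matrix protein, rose by 1.05 and 0.92 (log2, limma adjusted p = 8.66e-04 and 9.29e-04). Tgfb2 and Arhgef17 fell (log2 differences −0.56 and −0.43, limma adjusted p = 0.00766 and 0.00515). Among 15 Hippo pathway genes, 4 were higher and the other 11 were not called, with a median of 0.12. The coactivators Yap1 and Wwtr1 (TAZ) and the upstream gene Nf2 rose by 0.45, 0.39 and 0.37 on the log2 scale (limma adjusted p = 0.00309, 0.00746 and 0.00742). The lists therefore held more higher than lower genes. Among the genes named, all but Edn1 had smaller differences than Ctgf. Since Ctgf was picked for its rise, nothing is read from that order.

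Cyr61 and Ctgf are also known targets of SRF with MRTF and of TGF-beta. Of 14 tested genes of the SRF and MRTF list, which also holds the MRTF genes Mkl1 and Mkl2, 5 were lower, Mkl1 among them. The other 9 were not called, and the median log2 difference of the list was −0.28. The fit without air library 1 gave 3 lower and that without hyperoxia library 2 gave 8. Tpm1 (tropomyosin), Srf itself and Zyx (zyxin) fell (log2 differences −0.61, −0.52 and −0.46, limma adjusted p = 7.24e-04, 9.98e-04 and 0.00914), and without air library 1 Zyx did not pass (limma adjusted p = 0.0517). Of 13 genes of the TGF-beta list, 5 were higher and 1 lower, with a median of −0.064. The list also holds the ligand genes Tgfb1, Tgfb2 and Tgfb3, whose log2 differences were −0.079, −0.56 and −0.10. Col1a2 (a collagen chain) and Tgfbi rose by 1.09 and 0.91 on the log2 scale (limma adjusted p = 0.00108 and 0.00765), and the ligand gene Tgfb2 was the one that fell. Col1a1 and Col1a2, both among the higher genes, are also on the list of meningeal fibroblast markers described below. Without hyperoxia library 3, 3 genes of this list were lower. The part of SRF, MRTF or TGF-beta in the levels of Cyr61 and Ctgf was not tested.

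**Figure D2:**
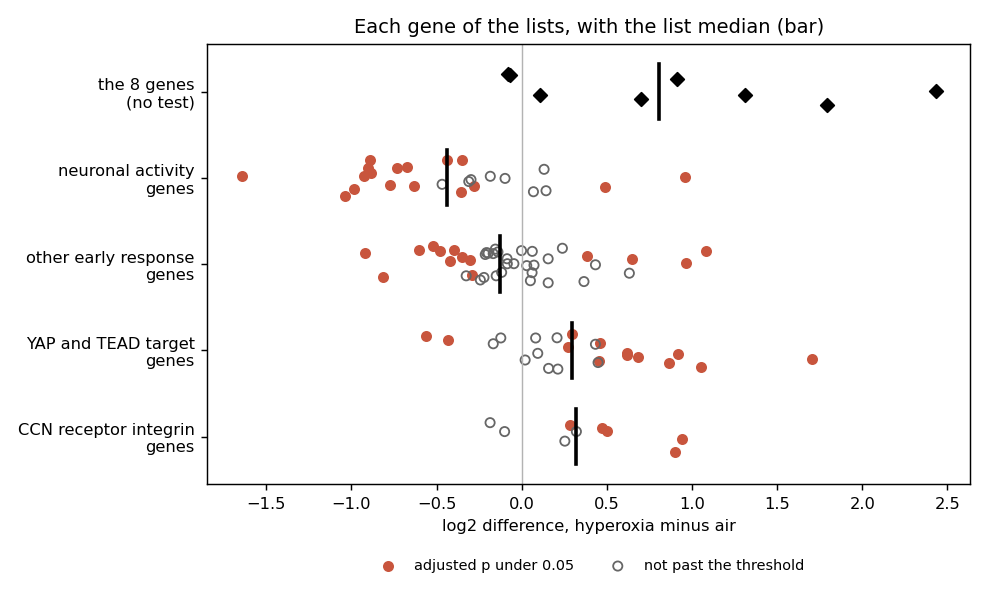
Log2 difference (hyperoxia minus air) of each tested gene in the 8 early response genes and 4 of the related lists, with a bar at each list's median and a thin line at 0. Filled circles passed a limma adjusted p under 0.05, and the 8 genes (diamonds) are shown without a call. Their median is 0.81, for genes picked for their rise. The medians of the YAP and TEAD targets, the neuronal activity genes and the CCN receptor integrins are 0.30, −0.44 and 0.32.

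Of all tested genes, 14.9% passed the limma adjusted p under 0.05 as higher and 15.6% as lower (30.5% in all). Every hyperoxia value was below every air value in 23.8%. Since the 8 genes were picked on this contrast, their own calls are not given and nothing is read from their place among these shares. The median log2 difference was 0.81 for the 8 genes. The smallest differences of the higher genes, 0.91 for Cyr61 and 0.70 for Sik1, were set apart from 0.11 for Btg2, −0.069 for Ier5 and −0.078 for Ier2.

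With the groups as the columns name them, among early genes other than the 8 more passed the test as lower than as higher. Of 25 neuronal activity genes, 2 were higher and 15 lower, with a median log2 difference of −0.44. Arc, which encodes a synaptic cytoskeletal protein, fell from 5268 ± 183 in air to 1690.2 ± 143 in hyperoxia (log2 difference −1.64 ± 0.079 (SE), limma adjusted p = 4.74e-05). Npas4 and Fosb, both transcription factors, fell as well (log2 differences −1.04 and −0.98, limma adjusted p = 9.05e-04 and 0.00176). The 2 that rose were Pcsk1, a prohormone convertase, and Fosl2, an AP-1 factor (log2 differences 0.96 and 0.49, limma adjusted p = 0.00426 and 0.00444). Of 13 markers of hippocampal neurons, 1 was higher and 6 lower, with a median of −0.35. The part of a change in neurons in the lower activity genes was not tested. Of 40 other early response genes, 4 were higher, 10 lower and 26 not called, with a median of −0.13. Maff, a small Maf factor, was at 47.8 ± 4.82 in air and 104 ± 24.2 in hyperoxia, Klf4, a Krüppel-like factor, at 164 ± 18.7 in air and 323 ± 59.3 in hyperoxia, and Id1, an inhibitor of helix-loop-helix factors, at 473 ± 48.6 in air and 743 ± 95.2 in hyperoxia (limma adjusted p = 0.00442, 0.00201 and 0.00361). Rasd1, Tob1 and the clock gene Per2 fell by 0.92, 0.81 and 0.60 on the log2 scale (limma adjusted p = 0.00160, 3.30e-04 and 0.00157). The log2 difference of Maff, 1.08, was the largest among these 40. Apold1, Ier3 and Ctgf were at 2.43, 1.79 and 1.31. They were picked for their rise in these same columns, so nothing is read from their larger differences.

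Compared per length of exon, the means of the 8 genes ran from 34.9 to 349.7 in air and from 142 to 334 in hyperoxia. In air, the normalized count per kilobase of exon was 34.9 ± 6.74 for Apold1, 64.8 ± 7.63 for Ier3, 70.9 ± 12.9 for Ctgf, 82.1 ± 2.32 for Cyr61 and 87.0 ± 7.0 for Sik1. Above them were Btg2 at 156 ± 7.90, Ier2 at 196 ± 11.9 and Ier5 at 349.7 ± 19.5. By this measure, the 5 genes that were higher in hyperoxia were the 5 at the lowest levels in air. The 3 whose groups overlapped were the 3 at the highest levels. Without division by length, Sik1 was at 446 in air, above Btg2 at 427 and Ier2 at 298. The genes were picked for their rise over these same air values. The order per kilobase in air and the narrower range in hyperoxia are therefore a description only. In that order Ier3, Ctgf, Cyr61 and Sik1 each overlapped its neighbor over the air libraries, whereas Apold1, Btg2, Ier2 and Ier5 did not overlap the gene next to them on the side of lower or, for Apold1, higher levels. In hyperoxia the level per kilobase was 142 ± 14.8 for Sik1, 155 ± 12.1 for Cyr61, 169 ± 18.1 for Btg2, 176 ± 23.2 for Ctgf, 187 ± 33.9 for Ier2, 192 ± 51.2 for Apold1 and 228 ± 37.6 for Ier3. Each of those 7 overlapped the next, and Ier5 alone, at 334 ± 24.7, stood above the rest.

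**Figure D3:**
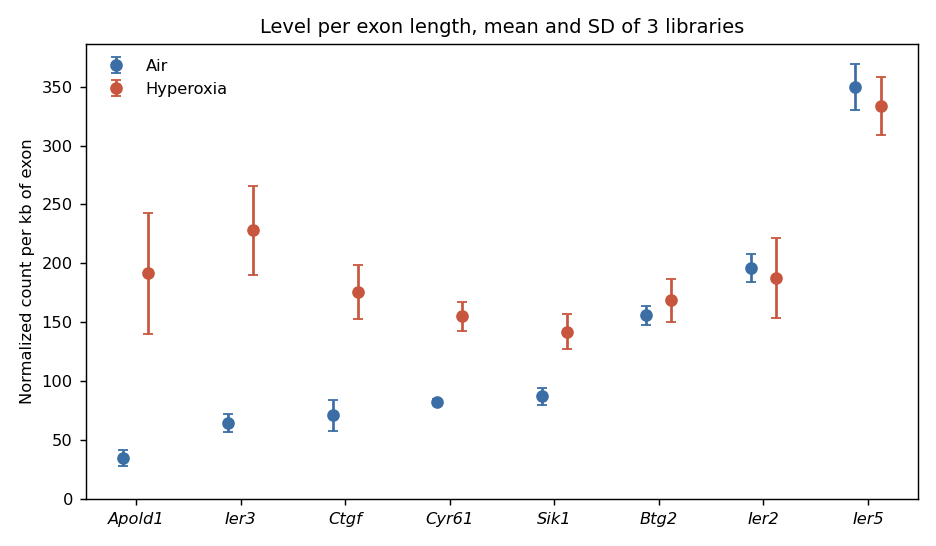
Mean normalized count per kilobase of exon of the 8 genes in air and in hyperoxia, ordered by the level in air, with the SD over 3 libraries as error bars. Apold1 goes from 34.9 to 192 and Ier3 from 64.8 to 228, while Ier5 stays the highest at 349.7 and 334.

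Most of the genes had a short structure, which the choice by level did not use. Their spans ran from 1240 to 11555 bases with a median of 3259, against 25238 for the 14931 tested protein-coding genes, of which 11.1% are shorter than Apold1, the second longest of the 8, and 27.1% shorter than Sik1, the longest. The longest transcript had a median of 2 exons, against 8. Sik1 was the exception, with 14 exons and 5133 exon bases, both above the protein-coding medians. The exon length differed less, with a median of 2802 bases against 4466, and the median GC content of the exons was 52.5% against 49.9%. Being short with few exons is a known trait of early response genes.

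Markers of other cell types and of neighboring tissue moved with the group, and their levels are set beside the members known from those cells. Summed endothelial markers were at 17009 to 17488 in air and 18714 to 21898 in hyperoxia, where 7 of 18 were higher and 2 lower. Without air library 1 there were 4 higher, without air library 2 there were 3 higher and 1 lower, without hyperoxia library 2 there were 4 lower, and with correction for length and GC content there were 11 higher. Kdr, Cldn5 and Esam rose by 0.61, 0.57 and 0.51 on the log2 scale (limma adjusted p = 0.00156, 0.00298 and 0.00444), and Ly6c1 fell (log2 difference −0.96, limma adjusted p = 9.80e-04). Apold1 as a percent of the endothelial sum was 0.720% ± 0.130 in air and 3.39% ± 0.612 in hyperoxia, a 4.71-fold ratio, beside a 1.15-fold ratio of the sum itself. Ier3 over the same sum was 0.424% ± 0.0560 in air and 1.29% ± 0.1000 in hyperoxia, a 3.03-fold ratio. Sik1 was at 2.58% ± 0.198 and 3.65% ± 0.216 of it. These ratios are a description, since the genes were picked for their level in the same libraries, and the part of vessel cells in them was not tested. The endothelial sum and Apold1 had the same order over the hyperoxia libraries, highest in library 2 and lowest in library 1. That order was not particular to them. Ier3, Sik1 and Btg2 had it too, as did the summed markers of pericytes and smooth muscle and of thalamus. Pericyte and smooth muscle markers had 2 of 9 higher and the other 7 not called.

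Ctgf and Cyr61 moved together with other markers. Summed meningeal fibroblast markers were at 8543 to 10614 in air and 11467 to 17234 in hyperoxia, a 1.56-fold ratio, with 9 of 10 higher. Ctgf as a percent of this sum was 2.16% ± 0.592 in air and 3.46% ± 0.622 in hyperoxia, a 1.60-fold ratio, and the groups overlapped. Cyr61 was 1.76% ± 0.239 and 2.17% ± 0.480 of the fibroblast sum, a 1.23-fold ratio, and its groups overlapped too. Relative to fibroblast markers, neither gene separated the groups. Over endothelial markers, Cyr61 was 0.958% ± 0.0144 in air and 1.58% ± 0.240 in hyperoxia with no overlap. Ctgf is in the neocortex also a marker of subplate and layer 6b neurons. The summed counts of 8 such markers were at 6863 to 7321 in air and 5903 to 7993 in hyperoxia. Of these 8, 2 were higher and 6 not called, with a median log2 difference of 0.082 and a lowest of −0.41. The higher were Cplx3 at 120.4 ± 25.1 in air and 376 ± 111 in hyperoxia and Sla at 193 ± 18.4 in air and 423 ± 109 in hyperoxia (limma adjusted p = 0.00112 and 0.00189). Neocortical markers had 6 of 10 higher, with sums of 11749 to 12762 in air and 14864 to 19749 in hyperoxia, and hyperoxia library 1 was the highest for this sum as for Ctgf. Ctgf was 1.66% ± 0.297 of the neocortical sum in air and 3.04% ± 0.101 in hyperoxia, a 1.83-fold ratio without overlap. Thalamic markers had 5 of 9 higher (3 higher without air library 1, without air library 2 or with limma run without its trend). The part of vessels, meninges or adjoining cortex in the levels of Ctgf and Cyr61 was not tested.

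**Figure D4:**
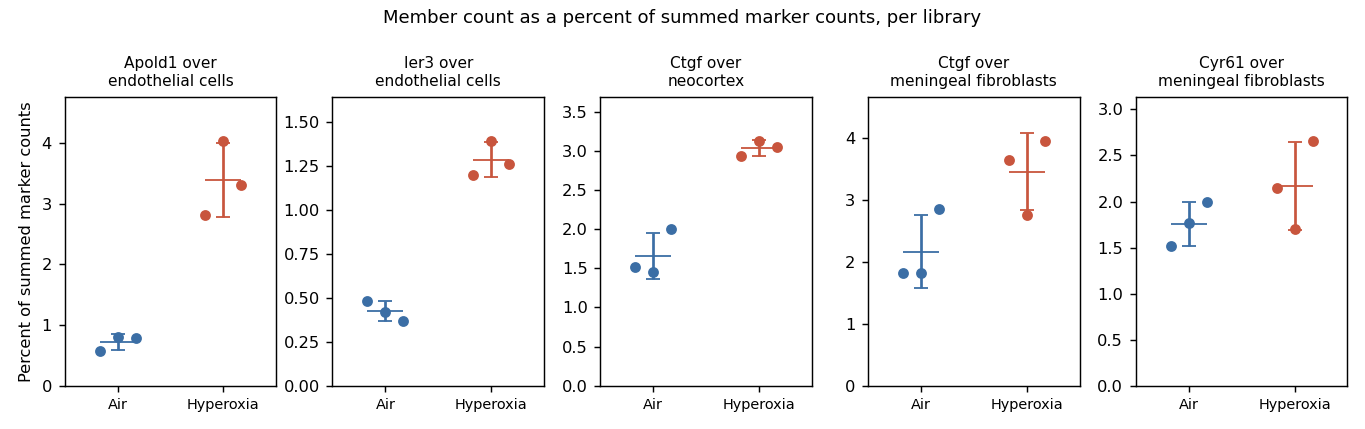
Apold1, Ier3, Ctgf and Cyr61 in each library (points, with the mean and SD of each group) as a percent of the summed counts of a marker list. Apold1 over endothelial markers separates the groups (0.720% against 3.39% on average), while Ctgf and Cyr61 over meningeal fibroblast markers overlap.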

How the data were processed

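RNA of the left hippocampus of 6 mice, 3 per group, was sequenced from strand-specific libraries on a NextSeq 500. The deposited signal is the number of reads on a gene, scaled by the authors with a single size factor for each library. The submitters' processing notes name FastQC, STAR 2.5.3a, HTSeq and DESeq2. For the genome build, annotation and counting strand: not given in the sources used here. A second deposited table held the authors' own comparison (mean, log2 fold change, its error, test statistic and p-values) and was not used. It is named for other treatments than the count table, and the sign of its differences was not checked against the columns, so directions rest on the column names alone.

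Gene identifiers were matched to GENCODE M21 on GRCm38 (99.7% found), which gave positions and exon lengths. Genes with a mean of at least 10 were tested on log2(value + 1) with limma 3.58.1 (trended moderated test, Benjamini-Hochberg adjustment, threshold 0.05) in R 4.3.3, on all 17778 genes that passed this filter, the 8 genes included, whose own p-values are not given. Differences on this scale understate those of low genes. All per-library values were whole reads within 0.01 read (100% of values), so edgeR 4.0.16 and DESeq2 1.42.0 were run on the recovered reads and called 5501 and 5611 genes, against 5425. Reads per library on the median tested gene were 449 to 576. With 1 library per mouse, p-values set the difference between groups against the spread between mice. The pups were exposed with their dams, and the litter of each mouse was not given. Whether the mice of a group were exposed independently is therefore not known. Trended limma, edgeR and DESeq2 were also run on simulated counts with known changes at a single dispersion, and the other alternatives were not.

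The 8 genes and the 27 related and marker lists were chosen with earlier results of these data known. Some genes stand on several lists, among them Fosb, Nr4a1, Pcsk1, Per1, Tob1, Srf, Tgfb2, Col1a1 and Col1a2. Counts of lists that share genes are not independent of each other. Named genes were the 8, the IER, BTG and TOB, SIK and CCN families, up to 3 called genes with the largest difference in each direction of a list, the 3 nearest profiles for Apold1, Ier3 and Sik1, and markers of lists that moved. A gene that this rule also named is not reported here. Promoter windows came from RefSeq, and matches were searched on both strands over 300 bases. There were 16 alternatives: pseudocount, filter, scaling, trend, tool, length and GC correction, and each library left out.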

Additional observations from a re-analysis of the deposited data

How the results depend on the processing

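Of 128 values of the 8 genes under 16 alternatives, 127 moved by less than 1 SD of the libraries. The exception was the log2 difference of Cyr61, 0.91, which was 1.03 after correction for length and GC content. Apold1, Ier3, Ctgf, Cyr61, Sik1 and Btg2 were above 0 under each of the 16, and the median of the 8 genes stayed between 0.77 and 0.88. Over all genes, leaving out 1 library gave 3048 to 7756 called genes, 1445 to 3838 higher and 1603 to 3918 lower. The lowest of each came without air library 1 and the highest without hyperoxia library 2. The 10 alternatives with all libraries gave 4224 to 6191. Leaving out 1 library gave 10 to 16 neuronal activity genes lower, 3 to 6 other early response genes higher and 9 to 13 YAP and TEAD targets higher. Of 816 list counts under the alternatives, 65 moved beyond 1.5 times, of which 56 had a count of at most 3. No scaling moved the median of all genes by over 0.1. No paired analysis was possible because the labels number the animals 1 to 6 with no number shared between groups. The fewest reads behind a value of the 8 genes, 63 for Ier3, give a counting error of 12.6%.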

Other observations

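The genes with the profile nearest to each of 3 members over the 6 libraries, measured as the root mean square difference of log2 values centred on each gene's mean, are given as a description. For Apold1 they were Gm37899 (0.328), Prr15 (0.383) and the ribosomal RNA gene Rn18s-rs5 (0.397), and Ier3 was the nearest of the other members at 0.417. For Ier3 they were Lgr6 (0.0989), a Wnt-pathway receptor, Slc17a6 (0.156), the vesicular glutamate transporter of thalamic neurons, and Pdzph1 (0.175). Lgr6 was at 123 ± 4.58 normalized counts in air and 411 ± 48.6 in hyperoxia (SD, n = 3). For Sik1 they were Apln (0.0492), which encodes the vascular peptide apelin, Ect2 (0.0597), a regulator of cell division, and Kif26a (0.0686). Apln was at 622 ± 17.8 in air and 1014 ± 82.4 in hyperoxia. No member was as near to Sik1, Cyr61 being the closest at 0.194.

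The SD of log2 values within groups was larger than that of 84.1% of tested genes for Apold1, 70.2% for Ctgf, 65.7% for Ier3 and 63.9% for Ier2. It was larger than that of 44.3% for Sik1, 36.6% for Btg2, 25.6% for Ier5 and 19.7% for Cyr61, so that 4 of the 8 lay above the median. Of the 3 hyperoxia libraries, library 2 was the highest for 5 of the 8 genes, library 1 for 2 and library 3 for 1.

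Among the remaining marker lists, 9 of 10 oligodendrocyte genes were lower, with sums of 221679 to 336370 in air and 152831 to 185863 in hyperoxia. Astrocyte markers had 4 of 10 higher and 2 lower, the lower calls not holding in several alternatives (from 0 to 2 over them), and microglial markers had 2 of 10 higher. With correction for length and GC content 4 microglial markers were higher, and without hyperoxia library 2 there were 4 lower.

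The exons of several genes named above overlap a gene on the other strand, among them Sik2 (1429 bases with Ppp2r1b), Btg3 (695 with Cxadr), Itgav (634 with Gm13684), Icam1 (511) and Cnot3 (433 with Leng1). The libraries marked strand, but whether the counting used it was not given, so these levels are less certain.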
